A study of Mus musculus with 2 samples.

Results

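The ephrin-B ligand genes Efnb1, Efnb2 and Efnb3 and the EphB receptor genes Ephb1, Ephb2 and Ephb3 were examined in single-cell transcriptomes of the mouse dorsal telencephalon at embryonic day 14.5. These 6 genes were taken by symbol from the 32285 genes of the count tables. Both libraries came from animals of genotype WT of the EomesDot line, labelled as brain hemispheres, and are called replicate 2 and replicate 4 here after the numbers in their labels. The study describes its mice as C57BL/6J and does not state how that relates to this line, nor which or how many embryos went into a library, so p-values measure only the spread between these 2 libraries. No other genotype, treatment or age was compared. The tissue was dissociated with papain and profiled with 10x Genomics 3′ chemistry.

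Ephrin-Bs are transmembrane proteins and EphBs are receptor tyrosine kinases, so both partners sit on the surface of touching cells. Binding clusters the receptor and starts forward signalling through its kinase, while the cytoplasmic tail of the ephrin-B is phosphorylated, recruits SH2 and PDZ proteins and starts reverse signalling in the cell that carries the ligand. In the developing cortex the family is known for contact repulsion of migrating neurons, for axon guidance and for effects on the division and adhesion of progenitors. EphA4 is an exception to the class rule, since it binds ephrin-B2 and ephrin-B3 as well as ephrin-As. It is described beside the EphBs together with Ephb4, best known as the venous receptor of ephrin-B2, and Ephb6, a member without kinase activity.

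Coordinates are those of mm10 (RefSeq annotation of GRCm38.p6). Efnb1 (ENSMUSG00000031217) lies on chrX:99136061-99149022, Efnb2 (ENSMUSG00000001300) on chr8:8617235-8661242 and Efnb3 (ENSMUSG00000003934) on chr11:69554092-69561150. Ephb1 (ENSMUSG00000032537) lies on chr9:101922128-102354693, Ephb2 (ENSMUSG00000028664) on chr4:136647536-136836326 and Ephb3 (ENSMUSG00000005958) on chr16:21204620-21223309. The gene bodies span from 7.06 kb (Efnb3) to 433 kb (Ephb1). Whether intronic reads were counted is not stated, so levels of different genes are not compared.

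Replicate 2 held 1712 barcodes with 40267872 UMIs (molecular tags that each mark 1 captured transcript), and replicate 4 held 2589 barcodes with 49422007 UMIs. After filtering, 1197 and 1956 cells remained, with medians of 30810 and 22948.5 UMIs per cell. Cells were clustered without any Eph or ephrin gene and the clusters were named from marker genes, each name with the ending -like. The lineage of excitatory neurons was covered by 702 radial glial cell (RGC)-like cells, 297 intermediate progenitor cell (IPC)-like cells, 861 newborn excitatory neuron-like cells and 666 excitatory neuron-like cells. The class of MGE interneuron-like cells (MGE, the medial ganglionic eminence, a subpallial source of cortical interneurons) held 54 and 93 cells. Both libraries shared 3 barcode sequences, 1 of them among retained cells. The libraries differed in makeup: striatal projection neuron-like cells, which belong to the subpallium, numbered 1 in replicate 2 and 67 in replicate 4. A sub-cluster of 12 MGE interneuron-like cells was found in replicate 4 only. Levels are UMIs per 1000000 UMIs of a class (CPM), given for replicate 2 first and replicate 4 second, and intervals are exact 95% Poisson intervals, which cover counting error only.

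Efnb1, the ligand gene on the X chromosome, stepped down along the excitatory lineage. It stood at 134 and 140.5 CPM in RGC-like cells, at 79.5 and 72.4 CPM in IPC-like cells, at 46.3 and 51.0 CPM in newborn excitatory neuron-like cells and at 26.1 and 33.6 CPM in excitatory neuron-like cells. At none of these steps did the values of the 2 libraries overlap. MGE interneuron-like cells were lower still, at 17.7 and 19.2 CPM, and overlapped with Cajal-Retzius-like cells at 19.9 and 17.0 CPM. Meningeal-like cells reached 116 and 103 CPM, between RGC-like and IPC-like cells, and hem or choroid plexus-like cells had the lowest level of the 8 classes, 11.6 and 15.3 CPM.

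Efnb2, the ligand gene that encodes ephrin-B2, had its highest mean in newborn excitatory neuron-like cells, which held 333 and 295 CPM. MGE interneuron-like cells held 311 and 259 CPM and overlapped with them. A gap separated both from excitatory neuron-like cells at 178 and 181 CPM, RGC-like cells at 168 and 162 CPM and IPC-like cells at 132 and 119 CPM. Cajal-Retzius-like cells (122 and 123 CPM) and meningeal-like cells (90.5 and 130.1 CPM) overlapped with IPC-like cells. Hem or choroid plexus-like cells stood far below the other classes, at 14.1 and 9.72 CPM.

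Efnb3, which encodes ephrin-B3, had its lowest levels in progenitors. Levels went from 3.30 and 5.03 CPM in IPC-like cells and 6.81 and 7.29 CPM in RGC-like cells to 9.98 and 11.3 CPM in newborn and 19.9 and 24.8 CPM in excitatory neuron-like cells. MGE interneuron-like cells held the highest mean, with 35.3 and 52.8 CPM, and overlapped with Cajal-Retzius-like cells at 42.4 and 29.7 CPM and, through these, with meningeal-like cells at 28.9 and 37.8 CPM. The level in MGE interneuron-like cells rested on 44 and 66 UMIs.

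Among the receptors, Ephb1 was the most uneven. Excitatory neuron-like cells held 344 and 371 CPM, RGC-like cells 175 and 167 CPM, newborn excitatory neuron-like cells 88.6 and 120.3 CPM and IPC-like cells 29.4 and 71.9 CPM. In MGE interneuron-like cells 1 UMI was found in replicate 2 and 14 in replicate 4, which is 0.803 CPM (0.0203 to 4.47) and 11.2 CPM (6.13 to 18.8). The libraries thus placed MGE interneuron-like cells last of the 8 classes. They lay far apart in IPC-like cells and in hem or choroid plexus-like cells (27.3 and 90.2 CPM). Meningeal-like cells (197 and 132 CPM) overlapped with RGC-like cells, and Cajal-Retzius-like cells (39.9 and 43.9 CPM) with IPC-like cells. The highest level of any named class came from the 67 striatal projection neuron-like cells of replicate 4, at 928 CPM, and the 1 such cell of replicate 2 held no Ephb1 UMI.

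Ephb2 was nearly level across the neural lineage. Newborn excitatory neuron-like cells stood at 161 and 155 CPM, IPC-like cells at 138 and 169 CPM, MGE interneuron-like cells at 138 and 155 CPM, RGC-like cells at 142 and 144 CPM and excitatory neuron-like cells at 137 and 128 CPM. The first 4 of these overlapped as neighbours in that order of means, and excitatory neuron-like cells lay just below. Cajal-Retzius-like cells, at 204 and 194 CPM, were above all of them, and meningeal-like cells (67.9 and 74.5 CPM) and hem or choroid plexus-like cells (54.6 and 45.8 CPM) were below.

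Ephb3 was sparse. Its highest mean was in hem or choroid plexus-like cells, at 9.93 and 6.94 CPM from 12 and 5 UMIs, which overlapped with MGE interneuron-like cells. MGE interneuron-like cells had 4.82 and 7.20 CPM (6 and 9 UMIs), RGC-like cells 4.23 and 5.73 CPM (36 and 66 UMIs) and IPC-like cells 2.20 and 3.84 CPM. Newborn and excitatory neuron-like cells had between 0.460 and 0.834 CPM, and the only gap between neighbours in the order of classes lay above these 2.

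**Figure D1:**
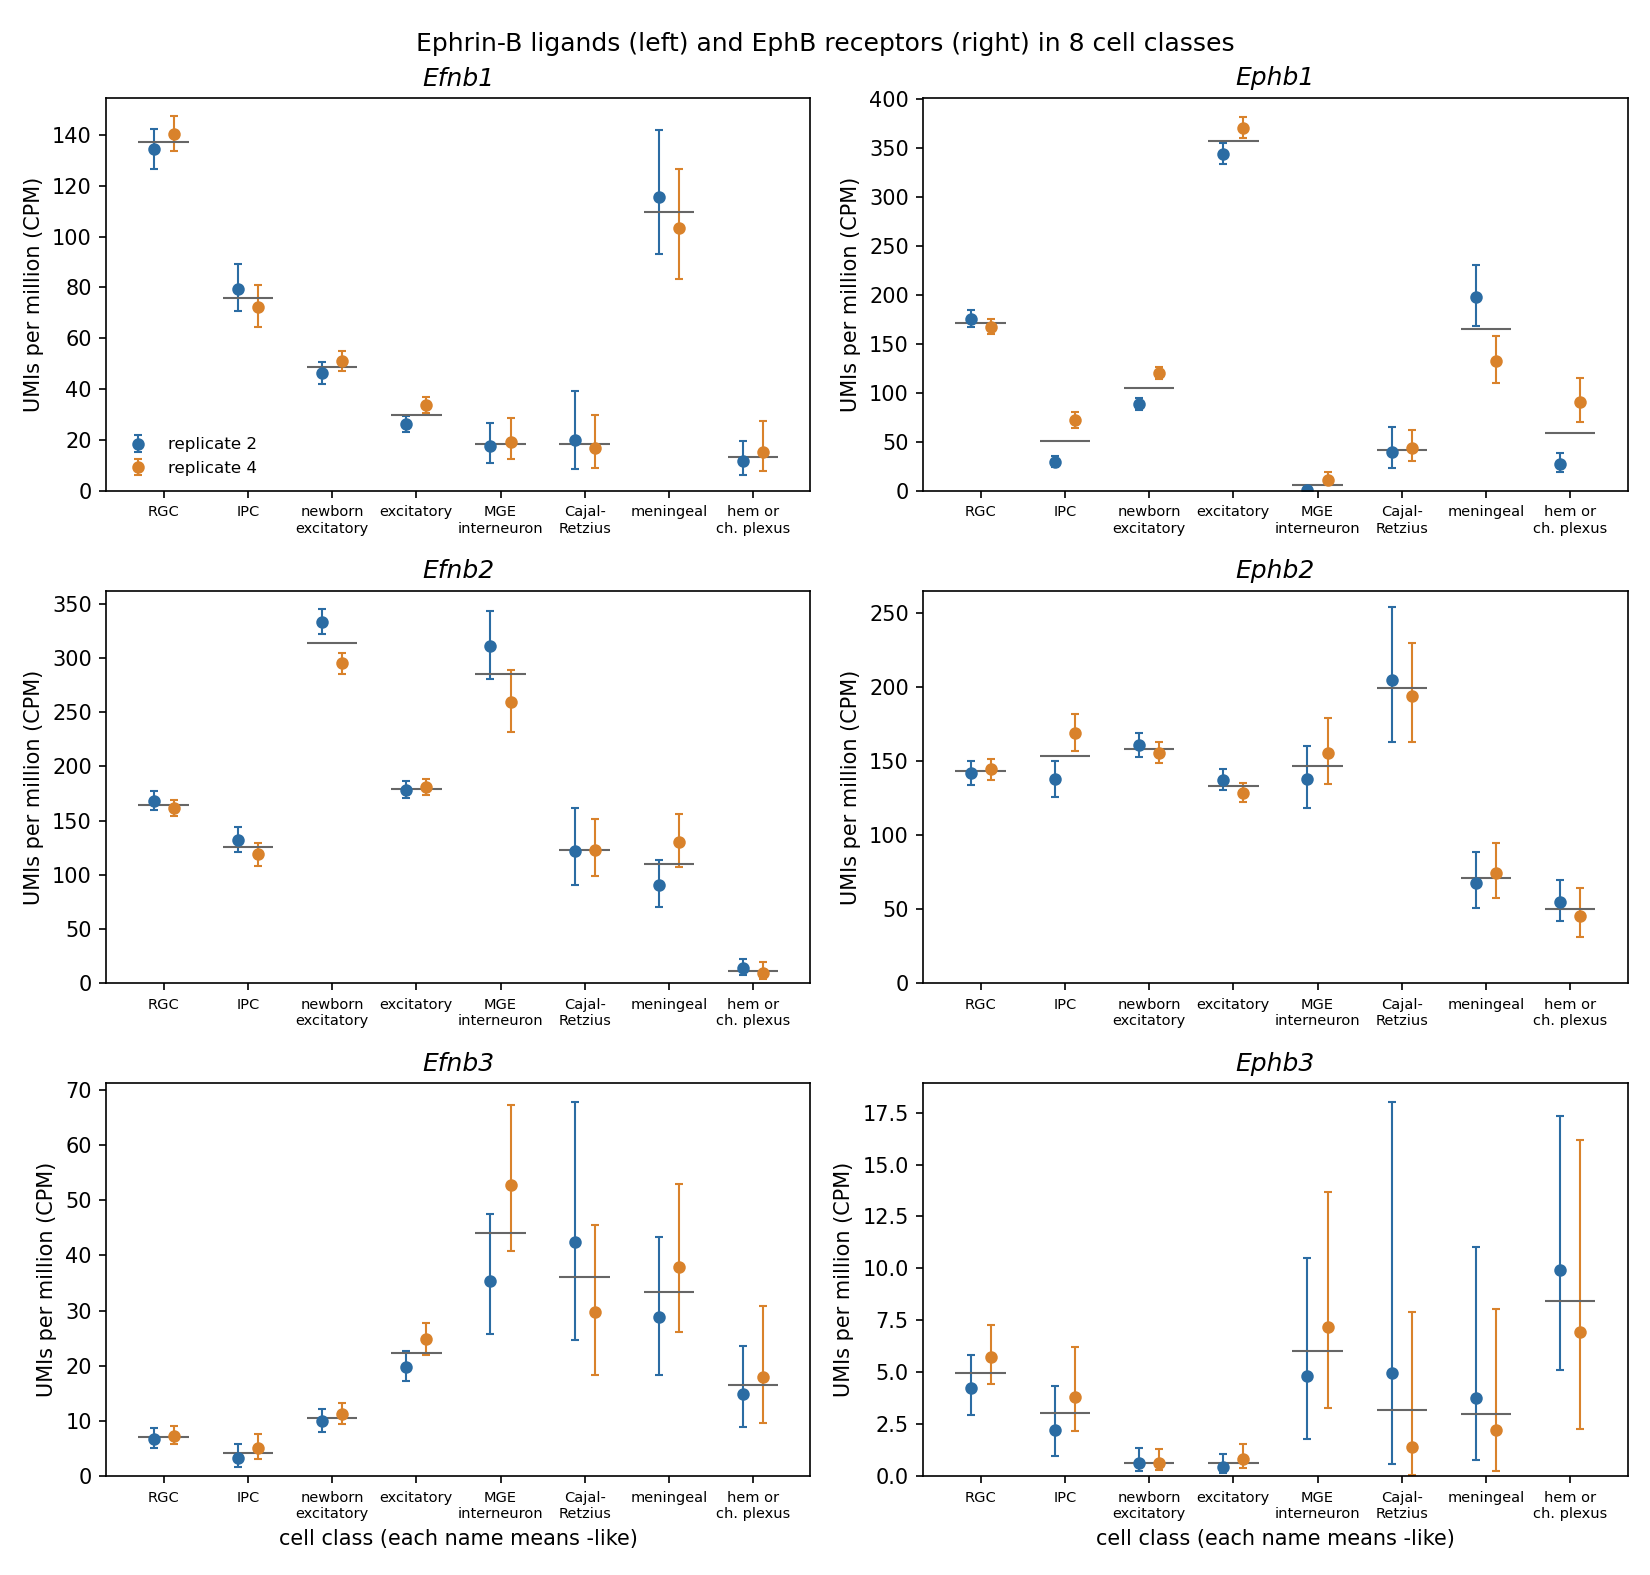
Levels of the 3 ligand genes (left) and the 3 receptor genes (right) in the 8 cell classes that entered the fit, in CPM (each panel with its own axis from 0). Points are replicate 2 (blue) and replicate 4 (orange) with 95% Poisson intervals, grey lines are means: Efnb1 steps down from RGC-like to excitatory neuron-like cells, Efnb2 peaks in newborn excitatory neuron-like cells at 333 and 295 CPM, and Ephb1 is near 0 in MGE interneuron-like cells.

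The other receptors had patterns of their own. Epha4 stood at 666 and 677 CPM in IPC-like, 624 and 626 CPM in RGC-like and 549.5 and 648 CPM in newborn excitatory neuron-like cells, against 227 and 224 CPM in excitatory neuron-like and 85.9 and 117.7 CPM in MGE interneuron-like cells. Ephb4 was highest in meningeal-like cells (28.9 and 25.6 CPM), followed by RGC-like cells (13.4 and 14.8 CPM), and MGE interneuron-like cells held 1 Ephb4 UMI in all. Ephb6 was highest in Cajal-Retzius-like (12.5 and 19.8 CPM) and newborn excitatory neuron-like cells (13.7 and 12.01 CPM).

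To set the classes against each other, UMIs were summed per library and class and all 8 classes (16 sums, 14634 genes tested) entered 1 edgeR quasi-likelihood fit. Fold changes are on the log2 scale with their standard error (SE), the first-named class over the second, and the threshold for a call was 0.05 after Benjamini-Hochberg adjustment over all genes tested. The comparisons share sums, so the 6 sets of values are not independent of each other.

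From RGC-like to IPC-like cells, 2 of the 6 genes were called, both higher in RGC-like cells, where 26.5% of all genes tested were called. Efnb1 was higher by 0.78 on the log2 scale (SE 0.14, edgeR adjusted p = 0.00122), with 0.67 in replicate 2 and 0.86 in replicate 4. Ephb1 was higher by 1.67 (SE 0.44, edgeR adjusted p = 0.0128), with values of 2.48 and 1.12 that lay far apart. The Ephb1 call was lost without the RGC-like cluster led by Gabrb1, an alternative chosen after seeing the data, where the difference was 0.62 (edgeR adjusted p = 0.338). The call was also lost at 5% mitochondrial UMIs or less (0.46, edgeR adjusted p = 0.391), where 61.2% of the cells of that cluster were placed with hem or choroid plexus-like cells, and at a coarser clustering (0.58, edgeR adjusted p = 0.158). The difference turned to -1.66 (edgeR adjusted p = 0.0266) at a finer clustering, where 64.1% of the 103 cells of that cluster were placed with the IPC-like cells. Efnb2 (0.31, adjusted p = 0.176), Efnb3 (0.66, adjusted p = 0.114), Ephb2 (-0.18, adjusted p = 0.343) and Ephb3 (0.63, adjusted p = 0.313) did not pass the edgeR test. Of 14 alternatives, Efnb2 passed in 2 (0.69 at the finer clustering, edgeR adjusted p = 0.0102, and 0.39 with DESeq2, adjusted p = 0.0167) and Efnb3 in 1 (0.89 at the finer clustering, edgeR adjusted p = 0.0370).

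From IPC-like to newborn excitatory neuron-like cells, 4 of the 6 genes were called, beside 26.1% of all genes tested. The ligands parted here. Efnb2 was lower in IPC-like cells, at -1.45 on the log2 scale (SE 0.16, edgeR adjusted p = 2.57e-05), nearly the same in both libraries with -1.45 and -1.43. Efnb3 was lower as well (-1.46, SE 0.28, edgeR adjusted p = 0.00161), whereas Efnb1 was higher (0.51, SE 0.14, edgeR adjusted p = 0.0165). The Efnb1 call was lost at the coarser and the finer clustering (0.43 and 0.38, edgeR adjusted p = 0.0617 and 0.0733), and 1 newborn cluster, led by Kif26b and Unc5d, held 90.6 and 76.4 CPM, above the IPC-like class in each library. That cluster moved to the IPC-like class in 90.3% of its cells at 500 genes or more and in 91.8% when classes came from one part of the UMIs. Ephb3 was higher in IPC-like cells (2.08, SE 0.51, edgeR adjusted p = 0.00881), from 8 and 16 UMIs against 6 and 8, a ratio of 4.78 (exact counting interval 2.38 to 10.00) against a newborn level that was not read as expression (the shares of cells are given further on). The Ephb3 call was lost when classes came from one part of the UMIs (1.05, edgeR adjusted p = 0.421). Ephb1 stood at -1.17 (edgeR adjusted p = 0.0669), which did not pass. It passed in 8 of 14 alternatives, among them the library as a block (-1.20, edgeR adjusted p = 0.0282), and turned in 2, with values from -2.18 to 1.24. Ephb2 did not pass (-0.17, edgeR adjusted p = 0.367).

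From newborn to excitatory neuron-like cells, 4 of the 6 genes were called, beside 22.4% of all genes tested. Efnb1 and Efnb2 were higher in newborn excitatory neuron-like cells, by 0.63 (SE 0.14, edgeR adjusted p = 0.00569) and 0.73 (SE 0.16, edgeR adjusted p = 0.00460). Efnb3 was lower, at -1.14 (SE 0.21, edgeR adjusted p = 0.00139), and so was Ephb1, at -1.85 (SE 0.42, edgeR adjusted p = 0.00653). Ephb2 (0.17) and Ephb3 (-0.10) did not pass, with edgeR adjusted p-values of 0.377 and 0.938. Of 14 alternatives, the call was lost in 2 for Efnb1, in 5 for Efnb2, in 3 for Efnb3 and in 3 for Ephb1. The number of genes called at this boundary moved from 3273 to between 1361 and 4956 under the alternatives. In 1 of them, 94.4% of the 160 cells of 1 excitatory neuron-like cluster, led by Tafa1, joined the newborn class when genes were scaled within each library, and there the calls of Efnb2, Efnb3 and Ephb1 were lost (edgeR adjusted p = 0.0724, 0.837 and 0.0889).

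The MGE interneuron-like cells were set against the excitatory lineage because the study asked whether ephrin-B2 on migrating MGE-derived interneurons acts on cortical progenitors through their Eph receptors. Against excitatory neuron-like cells, 5 of the 6 genes were called, beside 20.5% of all genes tested. Ephb1 was lower in MGE interneuron-like cells with -6.02 on the log2 scale (SE 0.66, edgeR adjusted p = 2.93e-05). The ratio of excitatory neuron-like over MGE interneuron-like cells was 33.1 in replicate 4 (counting interval 19.7 to 60.5). In replicate 2 it was 428 (76.8 to 16924), against a single UMI that was not read as expression. Of the 14 MGE interneuron-like UMIs of replicate 4, 9 came from the sub-cluster of 12 cells found there alone, and without it, an alternative chosen after seeing the data, the difference was -7.23 (edgeR adjusted p = 7.97e-06). Efnb1 was lower, at -0.82 (SE 0.19, edgeR adjusted p = 0.00763). Efnb2 (0.54, SE 0.16, edgeR adjusted p = 0.0313) and Efnb3 (0.85, SE 0.22, edgeR adjusted p = 0.0161) were higher, and so was Ephb3 (3.03, SE 0.56, edgeR adjusted p = 0.00184), from 15 UMIs in either class and a ratio of 9.17 (4.18 to 20.1), against an excitatory neuron-like level that was not read as expression. Ephb2 did not pass (0.02, SE 0.13, edgeR adjusted p = 0.962).

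In that comparison the median over all genes was -0.12 on the log2 scale and moved to -0.01 with DESeq2, and the share of calls that were higher in MGE interneuron-like cells went from 33.7% to 45.3%. Relative to the median gene, Efnb2 stood at 0.66, Efnb3 at 0.97, Ephb3 at 3.15, Efnb1 at -0.70 and Ephb1 at -5.89. The Efnb2 call was lost in 6 of 14 alternatives, with values from 0.25 to 0.54 in these, the Efnb1 call in 2 and the Efnb3 call in 3.

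Against RGC-like cells, 4 of the 6 genes were called, beside 50.2% of all genes tested. Efnb2 was higher in MGE interneuron-like cells by 0.95 on the log2 scale (SE 0.16, edgeR adjusted p = 0.000323) and Efnb3 by 2.79 (SE 0.25, edgeR adjusted p = 1.06e-06). Efnb1 was lower, at -2.74 (SE 0.18, edgeR adjusted p = 1.11e-07), with -2.73 and -2.70 in the 2 libraries, and so was Ephb1, at -4.67 (SE 0.67, edgeR adjusted p = 6.78e-05). For Ephb1 the values of the 2 libraries, -6.98 and -3.70, lay far apart. The first rests on a single MGE interneuron-like UMI that was not read as expression. Ephb2 (0.19) and Ephb3 (0.42) did not pass, with edgeR adjusted p-values of 0.254 and 0.495.

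Against IPC-like cells, 4 of the 6 genes were called in the same directions as against RGC-like cells, beside 41.8% of all genes tested. Efnb2 was higher by 1.26 (SE 0.17, edgeR adjusted p = 4.90e-05) and Efnb3 by 3.46 (SE 0.29, edgeR adjusted p = 1.04e-06). Efnb1 was lower, at -1.96 (SE 0.19, edgeR adjusted p = 3.09e-06) and so was Ephb1, at -3.00 (SE 0.72, edgeR adjusted p = 0.00442). For Ephb1 the values were -4.51 in replicate 2, again from that single UMI, and -2.58 in replicate 4. For Ephb2 the difference was 0.01 (SE 0.13, edgeR adjusted p = 0.996), and for Ephb3 it was 1.05 (edgeR adjusted p = 0.130). The Ephb1 call was lost in 1 of 14 alternatives (-1.16, edgeR adjusted p = 0.186). Both comparisons share the MGE interneuron-like sums.

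**Figure D2:**
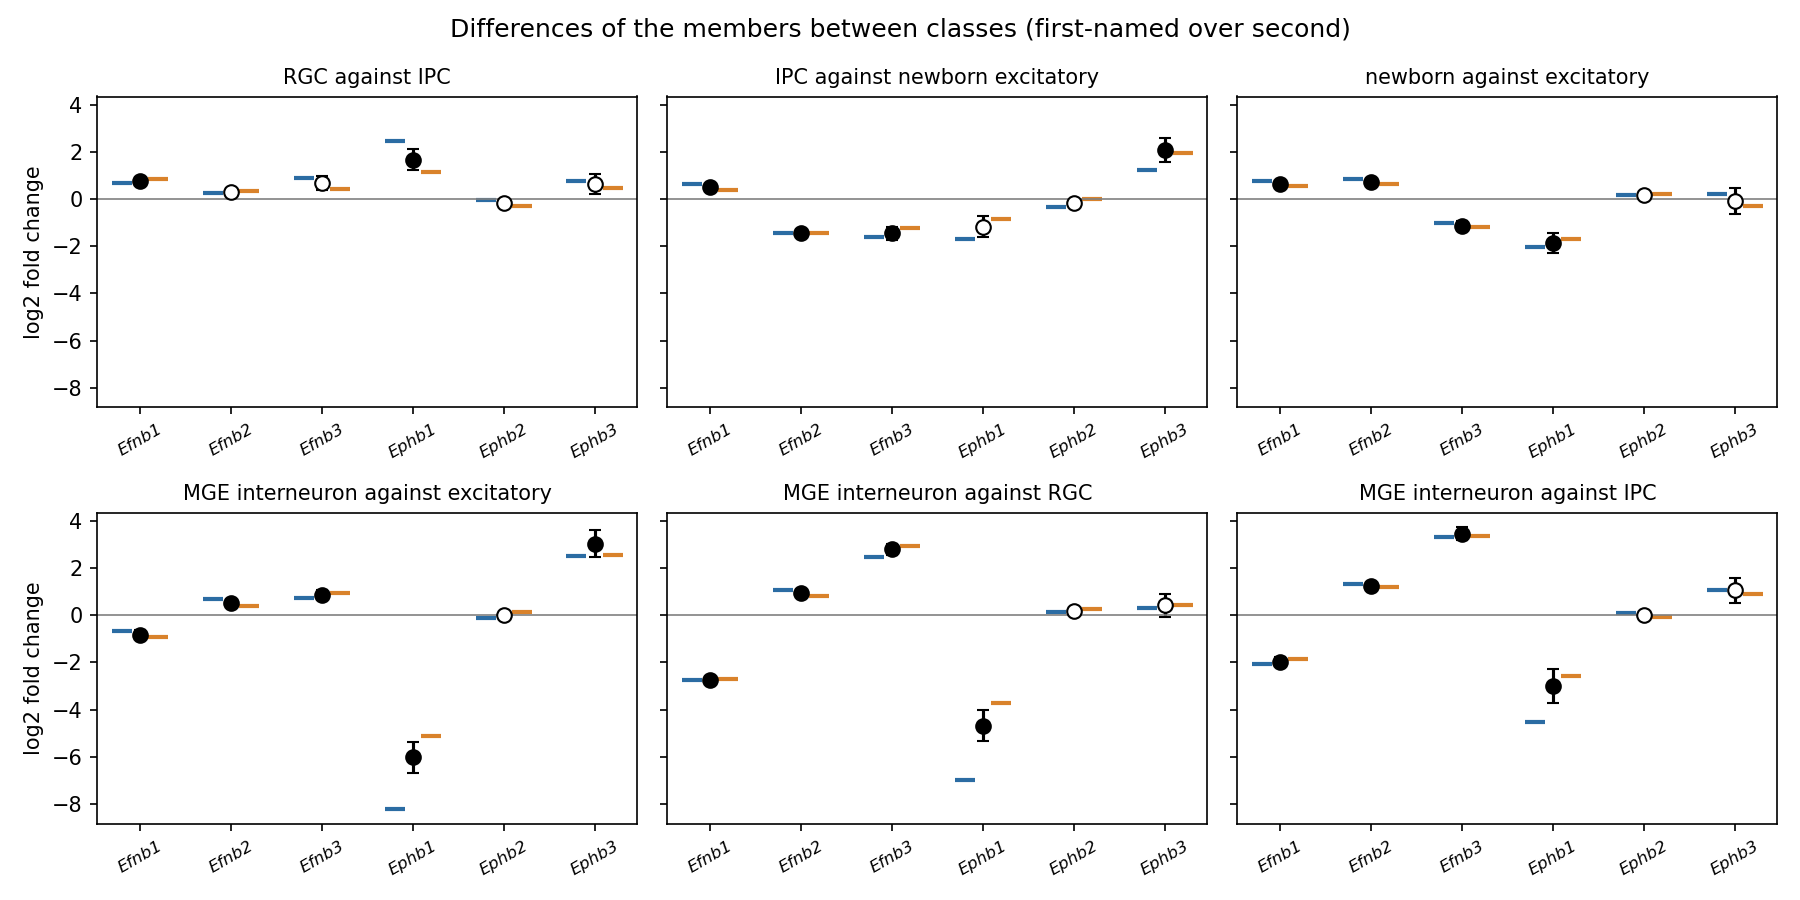
Log2 fold changes of the 6 genes in the 6 comparisons from the edgeR fit, with bars of 1 SE; filled points passed an adjusted p of 0.05 and open points did not, and the small dashes give the value in replicate 2 (blue) and replicate 4 (orange) alone. Ephb1 in the comparison of MGE interneuron-like with excitatory neuron-like cells lies lowest at -6.02, and Ephb2 stays close to 0 throughout.

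Markers of vascular and meningeal cells were scarce in MGE interneuron-like cells: 11 endothelial markers summed to 7.23 and 7.20 CPM with 6 of them at 0 in each library, and 9 meningeal markers to 0.80 CPM in replicate 4 with 8 at 0, all 9 being at 0 in replicate 2. The 13 excitatory neuron markers summed to 1779 and 1686 CPM there, against 9271 and 9424 CPM in excitatory neuron-like cells, with 5 and 3 of them at 0. In RGC-like cells the 10 mural markers summed to 76.4 and 67.8 CPM and the 9 meningeal markers to 19.0 and 17.3 CPM, against 14.6 and 21.1 CPM and 3.30 and 6.71 CPM in IPC-like cells, in the comparison where Efnb1, also high in meningeal-like cells, was called. The 12 RGC markers summed to 439 and 476 CPM in newborn and 1091 and 939 CPM in excitatory neuron-like cells. In RGC-like cells, which held the second highest mean of Ephb1, they summed to 6149 and 5535 CPM. The part of these markers in the results was not tested.

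For the other receptors, Epha4 was lower in MGE interneuron-like cells when compared with RGC-like cells (-2.46, edgeR adjusted p = 3.67e-06), IPC-like cells (-2.65, edgeR adjusted p = 3.19e-06) and excitatory neuron-like cells (-1.27, edgeR adjusted p = 0.00236), and higher in newborn than in excitatory neuron-like cells (1.34, edgeR adjusted p = 0.00107). Between RGC-like and IPC-like cells it did not pass (-0.18, edgeR adjusted p = 0.610), nor between IPC-like and newborn excitatory neuron-like cells (0.04, edgeR adjusted p = 0.942). Ephb4 was higher in IPC-like than in newborn excitatory neuron-like cells (1.94, edgeR adjusted p = 0.000676) and in RGC-like than in IPC-like cells (0.86, edgeR adjusted p = 0.0386). Ephb6 was lower in IPC-like than in newborn excitatory neuron-like cells (-1.76, edgeR adjusted p = 0.00439). Between RGC-like and IPC-like cells it stood at -1.48 (edgeR adjusted p = 0.0322), from 12 and 19 UMIs against 18 and 14, with a ratio in replicate 4 of 0.49 (exact counting interval 0.23 to 1.06). Only 4.25% and 4.06% of RGC-like cells held an Ephb6 UMI. None of the barcodes led by hemoglobin transcripts did, with exact upper bounds of 6.27% and 5.36%, and the RGC-like level was not read as expression. These bounds follow from the 57 and 67 barcodes alone. Their medians were 865 and 6712 UMIs against 31901 and 25657 in RGC-like cells, so these barcodes cannot show the background at that depth. Between RGC-like and IPC-like cells, the Ephb4 call was lost in 6 of 14 alternatives (adjusted p up to 0.243) and the Ephb6 call in 3 (up to 0.104). Between IPC-like and newborn excitatory neuron-like cells these calls were lost in 1 and 2, and the Epha4 call against excitatory neuron-like cells was lost in 2 for the MGE interneuron-like class.

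Within the classes, clusters differed widely in Ephb1. Clusters were drawn from the same cells, so these levels are a description with no test. The name RGC-like has a limit: the cluster led by Creb5 and Gm29260 with Hist1h1b and Top2a, which gave 45.5% and 50.2% of the UMIs of the class, raised 12 of 12 RGC markers but had none among its 10 leading genes, where Top2a and Mki67, genes of dividing cells that also mark GABAergic precursors here, were found. Among the 4 RGC-like clusters, the one led by Gabrb1, Tmem132c, Ltbp1 and Tnc (33 and 70 cells, 11 of 12 RGC markers raised) held 847 and 625 CPM of Ephb1, while the other three ranged from 16.8 to 117 CPM. It made up 12.7% and 15.8% of the RGC-like cells and gave 63.8% and 52.8% of their Ephb1 UMIs. The remaining RGC-like cells stood at 73.1 and 91.9 CPM. The same cluster was low in 2 ligands, with 43.5 and 72.5 CPM of Efnb1 and 45.3 and 73.1 CPM of Efnb2, where the others held 98.3 to 171 CPM and 149.6 to 236 CPM.

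Newborn excitatory neuron-like cells showed the same kind of split. The cluster led by Unc5d, Neurod1 and Eomes (52 and 93 cells) held 336 and 418 CPM of Ephb1 against 13.3 to 45.8 CPM in the other four, and gave 74.2% and 79.9% of the Ephb1 UMIs of the class. Its Ephb2 level, 242 and 222 CPM, was also above the 87.3 to 166 CPM of the others, and its Efnb2 level was 145 and 197 CPM. For Efnb2, the cluster led by Adamtsl3 held 449.5 and 408 CPM, the one led by Unc5d and Sema3c 473 and 316 CPM and the one led by Unc5d and Slc17a6 311 and 327 CPM, so the order of the latter pair differed between libraries. The cluster led by Kif26b and Unc5d held 183 and 177 CPM, close to the level of the excitatory neuron-like class. Among excitatory neuron-like cells, Ephb1 reached 616 and 551 CPM in the cluster led by Lrfn5, Rgs6 and Hs3st4, 291 and 384 CPM in the one led by Tafa1, and 168 and 138 CPM in the one led by Lrfn5 and Cdh13. Neither the cluster led by Lrfn5, Rgs6 and Hs3st4 nor the one led by Tafa1 had an excitatory neuron marker among its 10 leading genes. The class name is limited there too. They gave 33.7% and 41.5%, and 20.4% and 24.9%, of the UMIs of the class. Of its Ephb1 UMIs they gave 60.3% and 61.7%, and 17.3% and 25.8%.

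IPC-like cells fell into a cluster led by Eomes and Neurog2 and a cluster led by Top2a, Mki67 and other genes of the cell cycle. The latter gave 25.6% and 43.6% of the UMIs of the class and raised 7 of 8 IPC markers, but only Eomes was among its 10 leading genes, beside the same 2 genes of the GABAergic precursor list. In the first, Efnb1 stood at 87.6 and 83.7 CPM and Efnb2 at 109.8 and 93.9 CPM. In the second, Efnb1 was at 55.9 and 57.8 CPM and Efnb2 at 198 and 151 CPM, so the ligands were ordered oppositely in both libraries. Ephb1 was at 37.7 and 103 CPM in the first and at 5.37 and 31.4 CPM in the second.

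Among MGE interneuron-like cells, the sub-cluster led by Sst and Grik1 and the one led by Nxph1 and Nxph2 held similar Efnb2 levels, 328 and 286 CPM against 291 and 269 CPM. Epha4 was at 21.1 and 17.5 CPM in the first and at 160.1 and 216 CPM in the second. The 12 cells found in replicate 4 alone held 132 CPM of Efnb2 and 56.7 CPM of Ephb1.

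**Figure D3:**
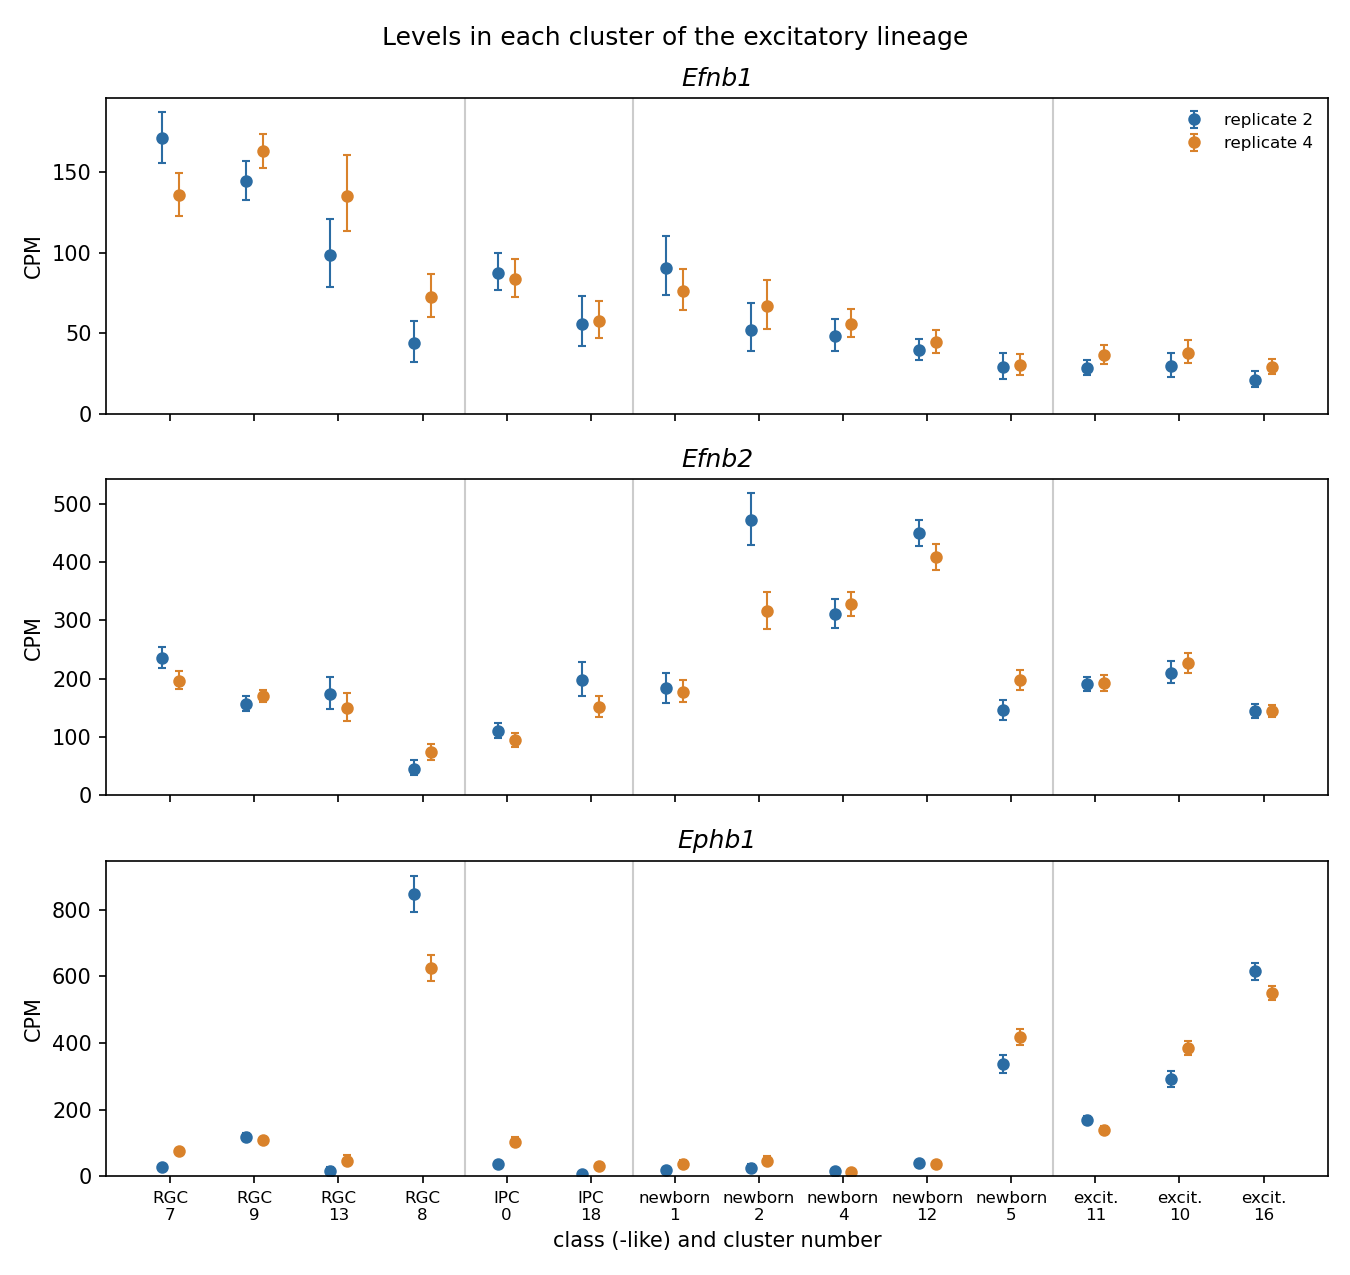
Levels of Efnb1, Efnb2 and Ephb1 in each cluster of the excitatory lineage, in CPM (axes from 0), with clusters grouped by class and named by number, replicate 2 in blue, replicate 4 in orange and 95% Poisson intervals. The RGC-like cluster led by Gabrb1 (cluster 8) holds 847 and 625 CPM of Ephb1, and the newborn excitatory neuron-like cluster led by Unc5d, Neurod1 and Eomes (cluster 5) holds 336 and 418 CPM.

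Cells of the progenitor classes were also split by phase scores of cell cycle genes. These scores were read as a description, since free RNA can enter them. RGC-like Ephb1 stood at 378 and 582 CPM in G1-like, 98.2 and 105 CPM in S-like and 149 and 95.6 CPM in G2M-like cells, but the cluster led by Gabrb1 made up 38.1% and 50% of the G1-like cells. Without it the G1-like level was 20.5 and 135 CPM, the lowest of the 3 phases in replicate 2 and the highest in replicate 4. RGC-like Efnb2 went from 139 and 132 CPM in G1-like to 190.4 and 170.1 CPM in S-like cells, whereas without that cluster it was highest in G1-like cells, at 217 and 224 CPM. In IPC-like cells, Efnb2 was 100.3 and 102 CPM in G1-like against 216 and 164 CPM in G2M-like cells, while Ephb1 was 41.2 and 108 CPM against 1.32 and 21.2 CPM. This repeats the split between the IPC-like clusters, since the one led by Eomes held 100% of the G1-like cells and the other 100% and 98% of the G2M-like cells.

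**Figure D4:**
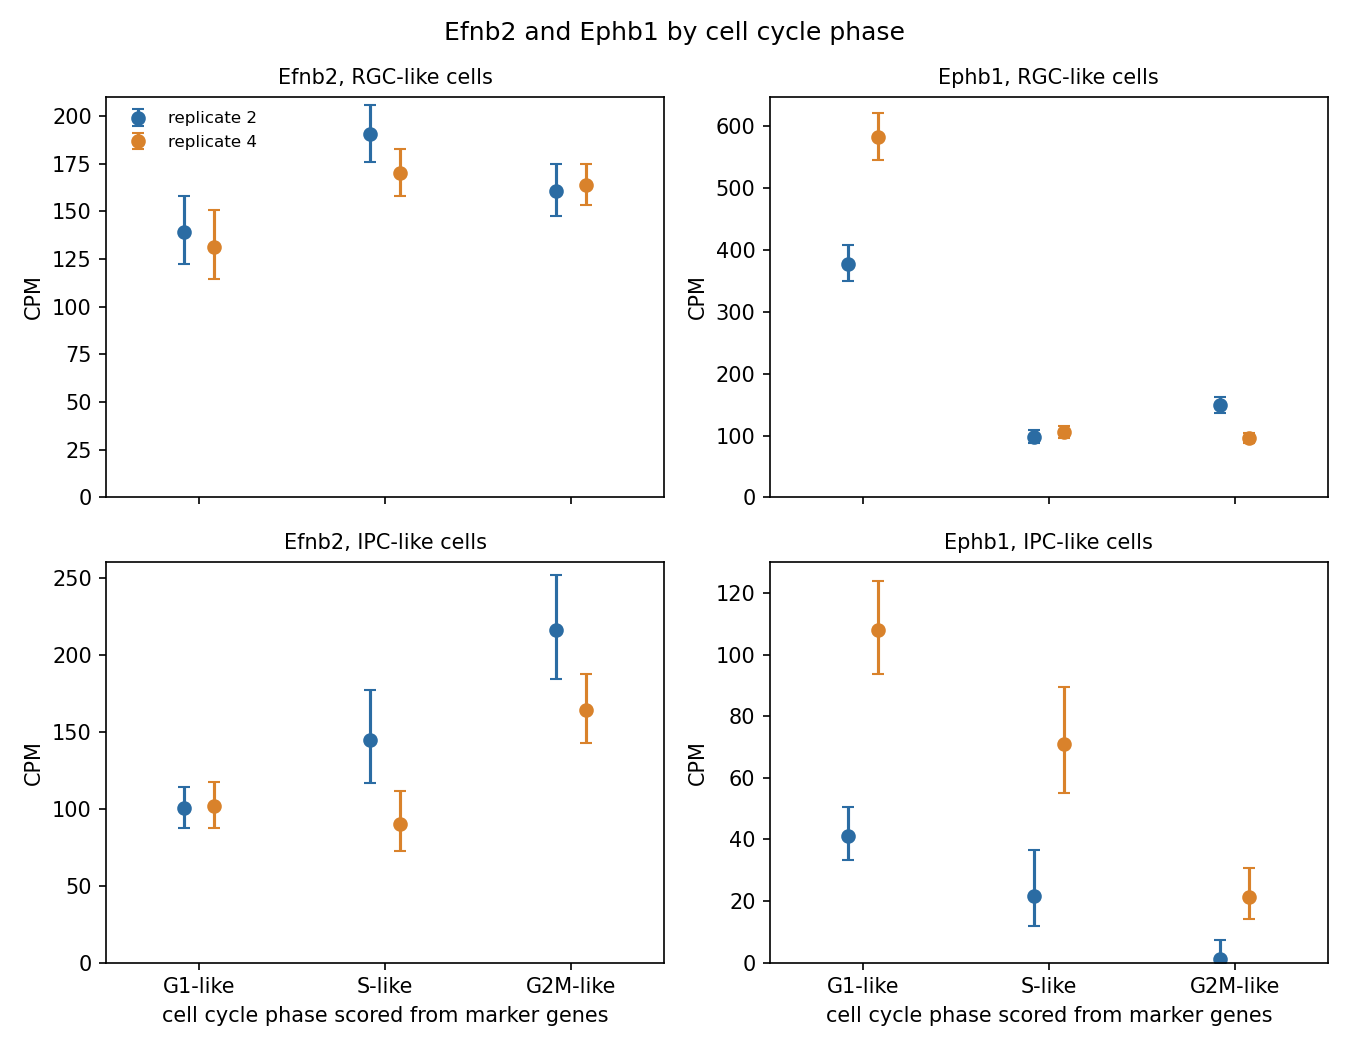
Levels of Efnb2 (left) and Ephb1 (right) in RGC-like (top) and IPC-like (bottom) cells split into G1-like, S-like and G2M-like cells, in CPM, for replicate 2 (blue) and replicate 4 (orange) with 95% Poisson intervals. RGC-like Ephb1 is highest in G1-like cells at 378 and 582 CPM. Without the cluster led by Gabrb1 that level is 20.5 and 135 CPM, the lowest of the phases in replicate 2. IPC-like Efnb2 is highest in G2M-like cells at 216 and 164 CPM.

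Cells with an Sst UMI were compared with the other MGE interneuron-like cells because the study's question concerned Sst-positive interneurons. A single Sst UMI made a cell Sst-positive, which held for 42.6% and 34.4% of the class, for 0% to 2.49% of the cells of the 4 classes of the excitatory lineage and for none of the 57 and 67 barcodes led by hemoglobin transcripts (exact upper bounds 6.27% and 5.36%). Sst-positive cells were deeper, with medians of 25713 and 15037 UMIs against 23396 and 9006, and the part of depth in the grouping was not tested. Efnb2 stood at 292 CPM in 23 Sst-positive and 327 CPM in 31 Sst-negative cells of replicate 2, a ratio of 0.89 (0.73 to 1.10), and at 254 and 263 CPM in 32 and 61 cells of replicate 4, a ratio of 0.96 (0.77 to 1.21). The intervals cover counting error only, and both include equal levels. Efnb3 ratios were 0.73 (0.38 to 1.40) and 1.28 (0.77 to 2.15), and Ephb2 ratios 0.82 (0.60 to 1.12) and 1.16 (0.86 to 1.55). Efnb1 had a ratio of 0.97 (0.38 to 2.46) in replicate 2 and of 0.18 (0.04 to 0.61) in replicate 4, the latter from 3 and 21 UMIs. Epha4 had ratios of 0.75 (0.50 to 1.13) and 0.20 (0.12 to 0.33).

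Shares of cells with a UMI are given beside the levels, whose order they did not always keep. In cells thinned to 5000 UMIs, Efnb2 was found in 71.7% and 66.7% of MGE interneuron-like, 69.0% and 68.4% of newborn excitatory neuron-like, 48.6% and 51.3% of RGC-like and 46.2% and 33.3% of IPC-like cells. Before thinning these shares were 94.4% and 83.9%, 93.4% and 92.1%, 81.5% and 83.1%, and 82.6% and 73.3%. Ephb1 was found in 55.7% and 57.3% of thinned excitatory neuron-like cells and in 1.89% and 4.76% of thinned MGE interneuron-like cells (78.9% and 74.1%, and 1.85% and 7.53%, before thinning). Barcodes led by hemoglobin transcripts, which should lack these genes, had medians of 865 and 6712 UMIs, and at most 5.26% of them held a UMI of any 1 of the 6 genes. An Ephb1 UMI was found in 1.75% and 0% of these 57 and 67 barcodes and an Ephb3 UMI in none, with exact 95% binomial upper bounds between 5.36% and 9.39%. The unthinned Ephb3 shares of newborn and excitatory neuron-like cells, 1.48% to 2.24%, and the Ephb1 share of MGE interneuron-like cells in replicate 2 lay below those bounds and were not read as expression, although all of these classes were deeper, with medians of 11154 to 40023 UMIs.

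A ligand and a receptor of the set were found together in the same thinned cell in 47.7% and 53.0% of excitatory neuron-like, 41.8% and 41.5% of newborn excitatory neuron-like, 37.7% and 41.7% of MGE interneuron-like, 30.8% and 33.3% of IPC-like and 28.0% and 42.9% of RGC-like cells. Ligand shares in that order were 60.3% and 65.8%, 75.0% and 77.1%, 81.1% and 77.4%, 57.3% and 56.5%, and 65.8% and 73.5%. Receptor shares were 77.5% and 79.4%, 56.6% and 57.1%, 47.2% and 54.8%, 52.1% and 60.1%, and 50.2% and 60.2%. Whether the joint shares differ from those that independent detection would give was not tested.

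Partners of Eph and ephrin signalling were read from 3 lists: 27 genes of forward signalling, 11 of reverse signalling and PDZ partners, and 15 of cleavage, dephosphorylation and turnover. Of these 53 genes, 51 were tested. From RGC-like to IPC-like cells 3 were higher and 14 lower, 33.3% of the genes tested beside 26.5% of all genes, with a median of -0.19 against 0.04 over all genes. With doublets kept 11 were called, while the count over all genes fell from 3881 to 2934. Higher in RGC-like cells were the polarity gene Pard6b (1.46), the syndecan Sdc2 (1.34) and the PDZ scaffold Grip1 (0.63). Lower were the Rac GTPase-activating gene Chn2 (-2.33), the phosphatase gene Ptpro (-2.02) and Anks1b (-1.83). At the step to newborn excitatory neuron-like cells 9 were higher and 7 lower in IPC-like cells, 31.4% beside 26.1% of all genes. Rgs3, whose product binds the tail of ephrin-Bs, went from 80.0 and 63.0 CPM to 4.57 and 4.61 CPM (log2 fold change 3.82, edgeR adjusted p = 3.45e-07).

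From newborn to excitatory neuron-like cells 8 were higher and 9 lower in the newborn class, 33.3% beside 22.4% of all genes, and the number called fell to 6 at 500 genes or more. Higher were the lipid phosphatase gene Inppl1 (2.40), Stat3 (2.02) and Zhx2 (1.91). Lower were Ptpro (-2.84), Grip2 (-2.12) and the guanine nucleotide exchange gene Ngef, with 2 UMIs against 63. MGE interneuron-like cells differed from excitatory neuron-like cells in 14 genes, 8 of them higher (27.5% beside 20.5% of all genes). Against RGC-like cells 29 were called, 20 of them higher (56.9% beside 50.2%), and against IPC-like cells 20, 10 of them higher (39.2% beside 41.8%). For the PDZ scaffold gene Grip1, MGE interneuron-like cells held 4640.1 and 3955 CPM, excitatory neuron-like cells 566 and 644 CPM, RGC-like cells 432 and 489.8 CPM and IPC-like cells 239 and 325 CPM (log2 fold change against IPC-like cells 4.01, edgeR adjusted p = 3.83e-08). Ptpn13, a phosphatase gene of the reverse signalling list, was low in MGE interneuron-like cells, with 7 UMIs against 557 in excitatory neuron-like cells (-3.23, edgeR adjusted p = 0.00243).

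For each member, the genes nearest in pattern across the 8 classes were read. Likeness was Pearson's r of log levels over the 8 classes in each library, and the lower of both was used, over 7731 genes. The classes share libraries and clustering, so these values are a description. Each is the highest of 7731 values over only 8 classes, and no level to be had by chance was worked out. The nearest genes were Rpsa for Efnb1 (0.93), Faxc for Efnb2 (0.95), Prickle2 for Efnb3 (0.96), Fat4 for Ephb1 (0.92), Kif5c for Ephb2 (0.96) and Ate1 for Ephb3 (0.82).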

How the data were processed

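Dorsal telencephalon cells of 2 libraries of 1 group (WT) were profiled. The authors deposited raw UMI counts per gene and barcode after cell calling, with no normalization; the submitters' processing notes name Cell Ranger 7.0.0 and mm10. Whether intronic reads were counted is not given in the sources used here. The study gives N = 5 for its signalling prediction, and only these 2 libraries were used here.

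The filter kept barcodes with 1000 genes or more and 10% mitochondrial UMIs or less, and Scrublet doublets (14 and 15 barcodes, 1.16% and 0.761%) were left out. Leiden clustering (scanpy 1.11.5, resolution 1, 20 neighbours, 30 components, 2000 variable genes, without 22 Eph and ephrin genes) gave 25 clusters, and GABAergic clusters were divided again (15 neighbours) into 8. A name needed at least 3 markers raised by a log2 ratio of at least 1 over the median cluster, with 10 CPM added, in at least 25% of cells. This scoring rule was settled with the clusters in view, and names may differ from the study's. UMIs were summed per library and class (at least 10 cells in each library) and tested with edgeR 4.0.16 (R 4.3.3; TMM, filterByExpr, quasi-likelihood), with SE derived from the fold change and its F value. The fitting script was tested on simulated data.

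The sums of 1 library carry 1 number and are paired by it: correlations of their deviations over 28 pairs of classes had a median of 0.106 (0.0132 to 0.306), 15 of them over 0.1. Alternatives changed cell filters, clustering, normalization, the test (DESeq2 1.42.0), the gene filter, the classes fitted and the block, and left out each library. The genes named are the 6 members and 3 further receptors whatever their result, up to 3 called genes per direction of the pathway lists in each comparison, and the genes nearest in pattern. The 6 genes and all lists were chosen with earlier results of these data known.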

Additional observations from a re-analysis of the deposited data

Results flagged for a closer look

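Barcodes left out by the filters, 515 in replicate 2 and 633 in replicate 4, were not used in any comparison, and all 6 genes were above the limit that 3 UMIs allow there (1.15 and 1.10 CPM). Efnb1 stood at 61.3 and 66.4 CPM in them, Efnb2 at 175 and 126 CPM and Efnb3 at 19.5 and 23.9 CPM. Ephb1 stood at 249.8 and 162 CPM, Ephb2 at 161 and 102 CPM and Ephb3 at 4.21 and 3.67 CPM. In retained cells, Efnb2 was at 207 and 195 CPM and Ephb1 at 174 and 204 CPM. The source of these UMIs was not tested.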

How the results depend on the processing

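Of the log2 fold changes of the 6 genes under the alternatives, 440 kept direction and side of the threshold, 31 lost a call, 13 gained one and 19 turned; of the other receptors 227 kept both, 19 lost a call and 5 turned. Turned values were as follows. RGC-like against IPC-like: Ephb1 -1.66 and Ephb3 -0.14 at Leiden resolution 2, Ephb2 0.10 at 500 genes and 0.14 with classes from one part of the UMIs. IPC-like against newborn: Ephb1 0.038 at resolution 0.5 and 1.24 at resolution 2. Newborn against excitatory: Ephb3 0.093 at resolution 0.5, 2.81 scaled within libraries and 1.67 with split UMIs; Ephb4 0.57 at 500 genes, 0.057 with doublets kept, 0.012 scaled within libraries and 0.75 with split UMIs. MGE interneuron-like against excitatory: Ephb2 -0.021 at resolution 0.5, -0.0095 scaled, -0.030 with split UMIs and -0.0024 without the sub-cluster found in 1 library. MGE interneuron-like against IPC-like: Ephb2 -0.015 with doublets kept, -0.089 at resolution 0.5, -0.085 at resolution 2, -0.0056 scaled, -0.0048 without that sub-cluster and -0.032 with all genes; Ephb6 0.18 at 5% mitochondrial UMIs. Ephb3 at 2.81 and Ephb1 at -1.66 were called.

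Genes called between newborn and excitatory neuron-like cells numbered 3273, and 1361 at 500 genes, 1523 with doublets kept, 2102 scaled within libraries, 1828 with split UMIs and 4956 with only the 2 classes fitted. Pathway genes called there went from 17 to 6, 8, 10 and 9 in the first 4 of these, and between RGC-like and IPC-like cells from 17 to 11 with doublets kept, where the count over all genes went from 3881 to 2934. The cause was not tested. With the replicate block, Ephb1 between IPC-like and newborn cells gained its call (-1.20), and no other call of the 9 receptors and ligands changed. The share of calls higher in RGC-like than IPC-like cells was 52.6%, and 65.5% with all genes tested. With 1 library left out, values had no test and pathway counts could not be given; 12 of these log2 values of the 6 genes moved by more than the spread between libraries and 60 did not. Of the class levels under the alternatives, 86 moved by more than that spread and 244 did not. The alternatives without the Gabrb1 cluster and without the sub-cluster were chosen after seeing the data. With 2 libraries, precision is limited by their number, and for Ephb3 by its few UMIs.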

Other observations

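Area genes were read in the clusters that held most Ephb1, a choice made after the values were seen. The RGC-like cluster led by Gabrb1 held 5119 and 3753 CPM of Zbtb20, a transcription factor gene of the hippocampal primordium, 237 and 221 CPM of Lef1 and 44.4 and 51.0 CPM of Wnt8b. The newborn excitatory neuron-like cluster with the highest Ephb1 level of its class held 2479.7 and 2091 CPM of Zbtb20 and 1322 and 1446 CPM of Zfpm2. The excitatory neuron-like cluster with the highest Ephb1 level held 1382 and 1914 CPM of Zfpm2 and 50.7 and 101.5 CPM of Zbtb20. The excitatory neuron-like cluster led by Tafa1, at 291 and 384 CPM of Ephb1, held 1348 and 1177 CPM of Zfpm2 and 1307 and 674 CPM of Zbtb20. The one led by Lrfn5 and Cdh13, lower in Ephb1, held 155 and 174 CPM of Zfpm2 and 61.1 and 59.0 CPM of Zbtb20. The other RGC-like clusters held 571 to 1742 CPM of Zbtb20 and 0 to 7.78 CPM of Wnt8b, and the other newborn clusters 137 to 1164 CPM of Zbtb20 and 8.57 to 276 CPM of Zfpm2. The genes named differ from class to class. Zfpm2 stood at 299 and 225 CPM in the cluster led by Gabrb1, below 348 and 312 CPM in the one led by Creb5. The excitatory neuron-like cluster with the highest Ephb1 level held 10.4 and 11.1 CPM of Lef1. The other clusters of its class held 26.6 to 46.8 CPM. Zbtb20 was also high elsewhere, at 1306 and 1380 CPM in Cajal-Retzius-like cells and 3896 and 3072 CPM in a cluster without a name. Clusters were drawn from the same cells, so none of these differences was tested.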
